A study of Mus musculus with 9 samples.

Results

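The 10 genes described here encode Toll-like receptors and the co-receptors through which macrophages detect lipopolysaccharide (LPS). They are Tlr1, Tlr2, Tlr4, Tlr6, Tlr7, Tlr8, Tlr9, Tlr13, Cd14 and Ly96. They were chosen by gene symbol and not by a rule on their values, but with earlier results of these data known. All 10 were found among the 25494 genes of the library table. RNA was depleted of ribosomal RNA and sequenced from immortalized mouse bone marrow-derived macrophages in which the gene for tristetraprolin (TTP, Zfp36) is disrupted. TTP is a protein that binds AU-rich elements in the 3'UTRs of inflammatory mRNAs and promotes their decay.

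All 3 groups came from the same TTP-deficient background. The cells had been immortalized with human c-myc and RasG12V, and they carried a retroviral vector from which doxycycline induced a transgene. The groups differed in that transgene, which was GFP alone (GFP), GFP fused to TTP (TTP) or GFP fused to TTP-AA, the S52A, S178A mutant that cannot be phosphorylated at those serines (TTP-AA). Every group received doxycycline at 1 µg/ml for 6 h and LPS at 1 µg/ml for 1 h, and each had 3 libraries, 9 in all. Without unstimulated libraries, the effect of LPS itself was not measured. The vector carried the coding sequence only. The series describes the replicates as biological, and the labels do not say whether they came from separate transductions, so p-values cover the spread between cultures of these transduced cells.

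Toll-like receptors are membrane proteins with an outer ligand-binding part built of leucine-rich repeats and an inner TIR domain that recruits the adaptors MyD88 or TRIF. Receptors at the cell surface bind microbial lipids and proteins, and receptors in endosomes bind nucleic acids. In macrophages LPS is passed from LPS-binding protein to CD14 and then to the pair of TLR4 and MD-2 (Ly96), and the signal ends in activation of NF-kB, MAP kinases and interferon regulatory factors.

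The library table held fitted means of the authors' count model and not the measured counts, so a group's change is by construction the same in every replicate number. Overlap or separation of groups below therefore only sets the fitted group difference beside the fitted replicate differences. It is no evidence from single replicates. The values below are fitted read counts after scaling of each library, given within a group in the order of replicates 1, 2 and 3. Differences are log2 values given with the standard error of the authors' model, which holds the scatter between replicates. Totals of the fitted means ran from 21482954 in TTP replicate 1 to 102613526 in TTP-AA replicate 3, and the 10 genes made up between 0.156% and 0.227% of them. TTP-AA replicate 3 stood apart in depth, with a library factor of 2.83 where the other libraries lay between 0.612 and 1.06, and results without it could not be computed from fitted means.

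Zfp36, the gene that was disrupted and then supplied, had fitted read counts of 1748, 1425 and 887 in GFP, 1785, 1444 and 908 in TTP and 2842, 2310 and 1442 in TTP-AA. It differed by 0.03 ± 0.17 (SE) between TTP and GFP (Wald test, adjusted p = 0.954) and by 0.67 ± 0.17 between TTP-AA and TTP (adjusted p = 0.000632). Reads from the disrupted locus and from the transgene were not separated, and an antisense gene, Gm44710, overlaps an exon. The level therefore did not separate the libraries labelled TTP from those labelled GFP and gave no check of that label.

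The macrophage identity of the cells was visible in all libraries. Summed fitted read counts of 10 macrophage markers lay between 463346 and 887920. Most of this was Lyz2, with 410133 in TTP replicate 3 and up to 810263 in TTP-AA replicate 2, while Mertk stayed between 14.9 and 21.1. The 4 dendritic markers summed to between 227 and 339, and 3 neutrophil markers to between 113 and 309. By contrast, 5 fibroblast markers summed to at most 9.23, 2 lymphoid markers to at most 2.16 and the mast cell marker Fcer1a to at most 0.272. Of the macrophage markers, 4 of 9 tested fell in TTP vs GFP, 1 of 10 rose and 1 fell in TTP-AA vs GFP, and 3 of 10 rose and 1 fell in TTP-AA vs TTP, where 8.93%, 18.0% and 28.4% of all genes were called in either direction. Emr1, which encodes the F4/80 antigen used to check the line, differed by -0.76 ± 0.14, 0.69 ± 0.14 and 1.45 ± 0.14 in these comparisons (Wald adjusted p = 8.12e-06, 6.11e-05 and 1.87e-21). Lyz1, a lysozyme, was lower in each of them, with differences of -1.25 ± 0.14, -1.95 ± 0.14 and -0.71 ± 0.14 (adjusted p = 1.10e-17, 2.23e-43 and 4.19e-06). The neutrophil marker S100a8 rose by 0.76 ± 0.21 in TTP-AA vs TTP (adjusted p = 0.00256) while Mpo and Elane stayed below a fitted read count of 1 in every group. Of 3 dendritic markers tested in that comparison 1 was called, Zbtb46, which differed by -1.04 ± 0.23 (adjusted p = 8.23e-05). Its group means were only 37.3 in TTP and 18.1 in TTP-AA. The more abundant Flt3 was at -0.16 ± 0.15 (adjusted p = 0.476), and Itgax was not called either (adjusted p = 0.149). The part of these marker changes in the receptor values was not tested, and in bulk RNA fewer cells of a kind and less RNA per cell cannot be told apart.

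Among the 10 genes, levels per kb of annotated exon differed by more than 3 orders of magnitude. In GFP libraries Cd14 was the highest, with a mean of 13526 fitted reads per kb, followed by Tlr2 with 9551. The middle of the order was held by Tlr13 (901 per kb), Tlr4 (664 per kb), Tlr7 (407 per kb) and Ly96 (346 per kb). Tlr6 and Tlr8 were nearly level at 52.5 and 51.8 per kb, and Tlr1 (17.7 per kb) and Tlr9 (4.60 per kb) were the lowest. Over all 9 libraries the ranges overlapped between Cd14 and Tlr2, Tlr13 and Tlr4, Tlr4 and Tlr7, Tlr7 and Ly96, and Tlr6 and Tlr8. They did not overlap between Tlr2 and Tlr13, Ly96 and Tlr6, Tlr8 and Tlr1, or Tlr1 and Tlr9. The order in TTP was the same as in GFP, and in TTP-AA as well.

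**Figure D1:**
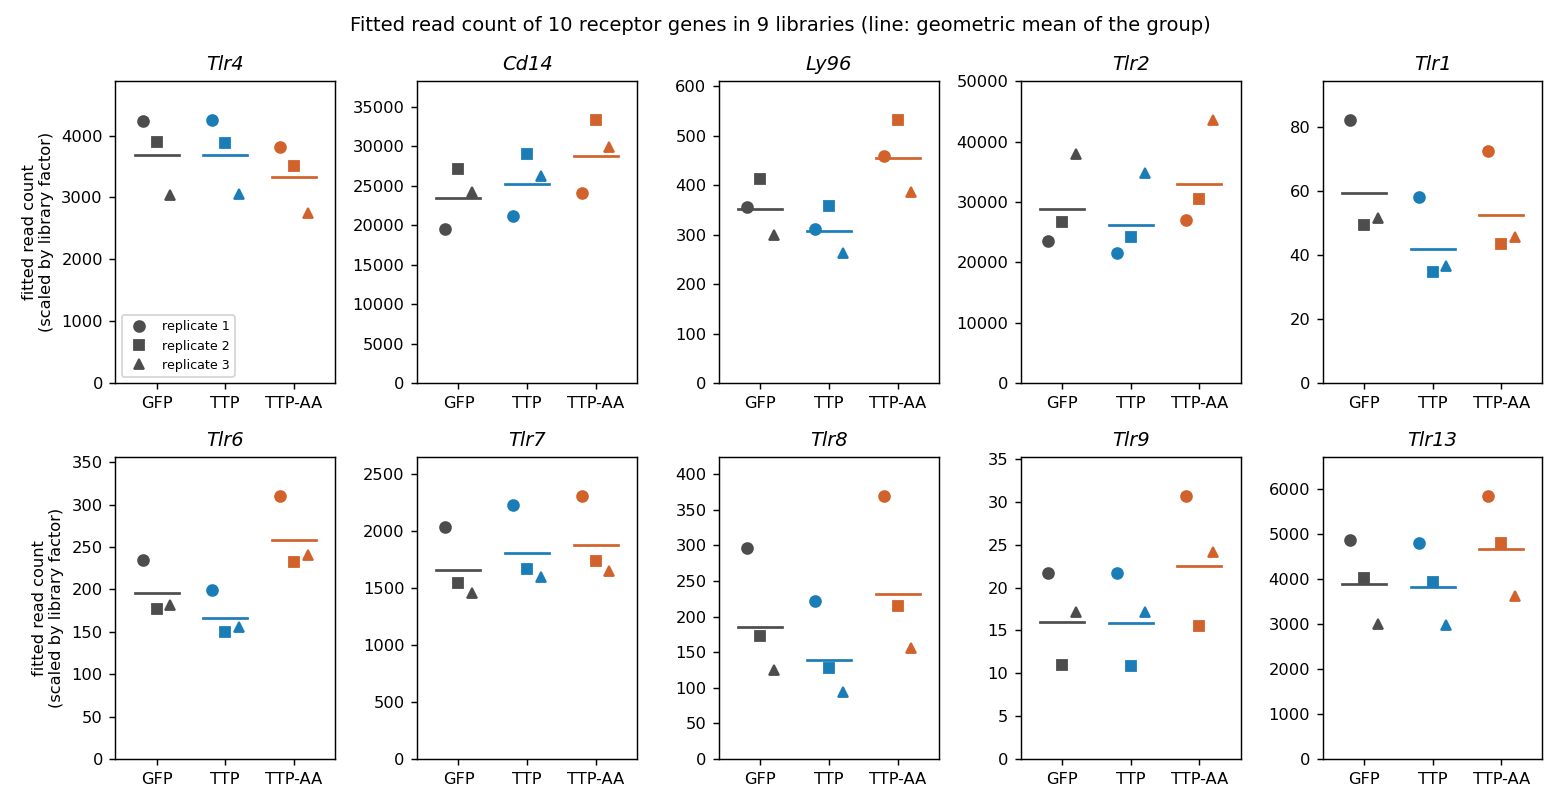
Fitted read count of each receptor gene (y axis, scaled by library factor, from 0) in the 9 libraries by group (x axis), with a marker shape for each replicate number and a line at the geometric mean of the group. Tlr8 ran from 93.8 in TTP replicate 3 to 369 in TTP-AA replicate 1, and the order of the replicate numbers within a gene is the same in every group because the values are fitted.

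Since TTP acts through AU-rich elements, the annotated 3'UTR of each gene (GENCODE, GRCm38, transcript with the longest coding sequence) was searched on the sense strand for the heptamer TATTTAT and for the pentamer ATTTA that it contains. The heptamer was found only in Tlr4, once, in a 3'UTR of 1321 bases. The pentamer was found in Tlr4 (2 times, of which 1 lies inside the heptamer), Tlr7 (1 time) and Cd14 (1 time, from base 59). The sites of Tlr4 and Tlr7 are printed, with the motif in capitals, because AU-rich letters of this kind are what TTP is known to prefer, and other 3'UTR isoforms were not searched.

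Tlr4, chr4:66842013-66842039, plus strand, heptamer from base 544 of the 3'UTR: aagaatgctaTATTTATtaaatacaat

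Tlr4, chr4:66842327-66842351, plus strand, pentamer from base 858 of the 3'UTR: tgatttcatcATTTAttcttgattt

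Tlr7, chrX:167305065-167305089, minus strand, pentamer from base 257 of the 3'UTR: caaggctttgATTTAtctgcataca

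Of 20721 protein-coding genes with an annotated 3'UTR, 25.4% held the heptamer and 61.5% the pentamer. The receptor 3'UTRs were mostly short, with 58 bases in Tlr8, 74 in Ly96, 148 in Tlr2 and 166 in Tlr1, against a median of 801 bases over all genes. Among 3'UTRs of similar length (0.8 to 1.25 times), the heptamer was present in 1.75% for Tlr8, 1.63% for Ly96, 31.9% for Tlr4, 28.1% for Tlr6 and 21.2% for Tlr13. Tlr6 and Tlr13, with 1111 and 859 bases, had neither motif, whereas 79.3% and 68.6% of 3'UTRs of their length held the pentamer. A match is a description of the sequence, and TTP binding was not measured in these libraries.

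**Figure D2:**
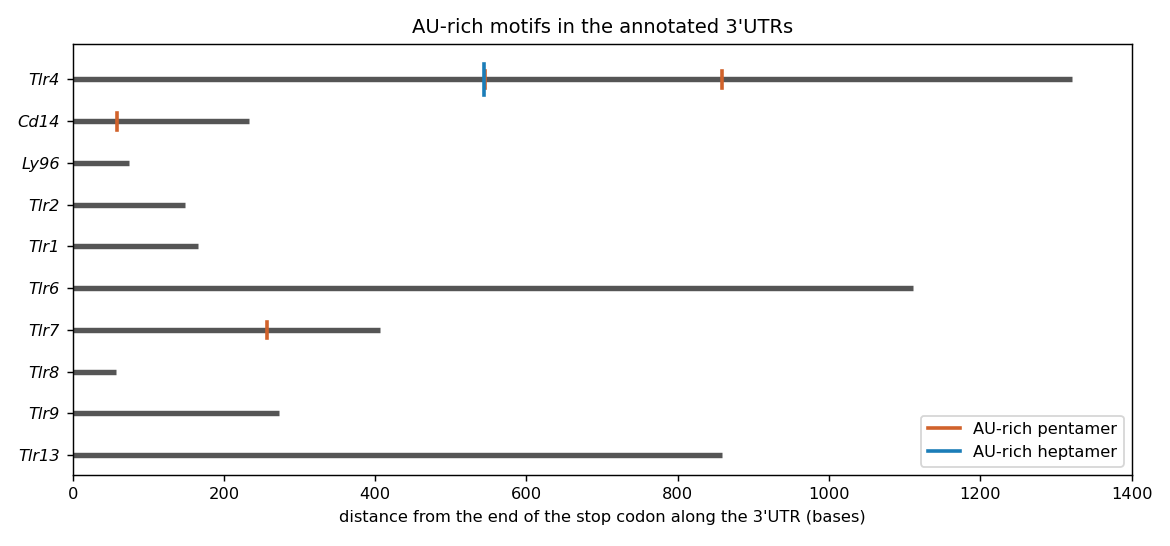
Annotated 3'UTR of each receptor gene drawn to scale from the stop codon (x axis, bases), with ticks at the pentamer and the heptamer on the sense strand. Tlr4 carries 2 pentamers, the nearer one inside the heptamer, and Tlr7 and Cd14 carry 1 each.

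TTP vs GFP sets TTP-deficient cells given wild-type TTP against separately transduced cells given GFP alone, so the transgene and the transduced line cannot be told apart. None of the 9 receptor genes tested differed at an adjusted p under 0.05 (Wald test, Benjamini-Hochberg adjustment over 11977 genes), where 8.93% of all genes did, 3.52% higher and 5.42% lower in TTP. At an unadjusted p under 0.05 there were 2 of 9, Tlr1 and Tlr8, both lower in TTP, beside 2527 of all genes (21.1%). That count was near the share over all genes. The median difference of the receptor genes was -0.13, with 2 positive and 7 negative values. That of all genes was -0.00, with 49.5% of values positive. Tlr9 was not listed in that comparison, whose lowest mean normalized count was 23.0, and it was not tested there.

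TTP-AA vs GFP does the same for the mutant, against the same GFP libraries. Here 2 of 10 receptor genes rose, Cd14 and Ly96, and none fell, beside 18.0% of all 13205 genes called, 9.49% higher and 8.47% lower. The count was near the share over all genes, and both genes passed by little (Wald adjusted p = 0.0476 for Cd14 and 0.0328 for Ly96). At an unadjusted Wald p under 0.05 there were 5 of 10, beside 29.0% of all genes. The median difference was 0.28 for the receptor genes and 0.01 for all genes.

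TTP-AA vs TTP sets the cells with the mutant against the cells with wild-type TTP. Zfp36 itself was higher in TTP-AA (0.67 ± 0.17), and the groups were separately transduced. Effects of the serines, of the transgene level and of the transduced line therefore cannot be told apart. It had the most calls, with 4 of 10 receptor genes higher in TTP-AA, Tlr8, Tlr6, Ly96 and Tlr13, and none lower. Among all genes 28.4% were called, 15.2% higher and 13.2% lower in TTP-AA, so that changes in this comparison were frequent in general. The median difference was 0.33 for the receptor genes, with 9 positive values and 1 negative, and 6 of the 10 did not pass. For all genes the median was 0.01, with 51.3% of values positive. An unadjusted Wald p under 0.05 was found for 5 of 10 receptor genes, beside 37.6% of all genes. The comparisons share libraries in pairs and are not independent of each other.

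**Figure D3:**
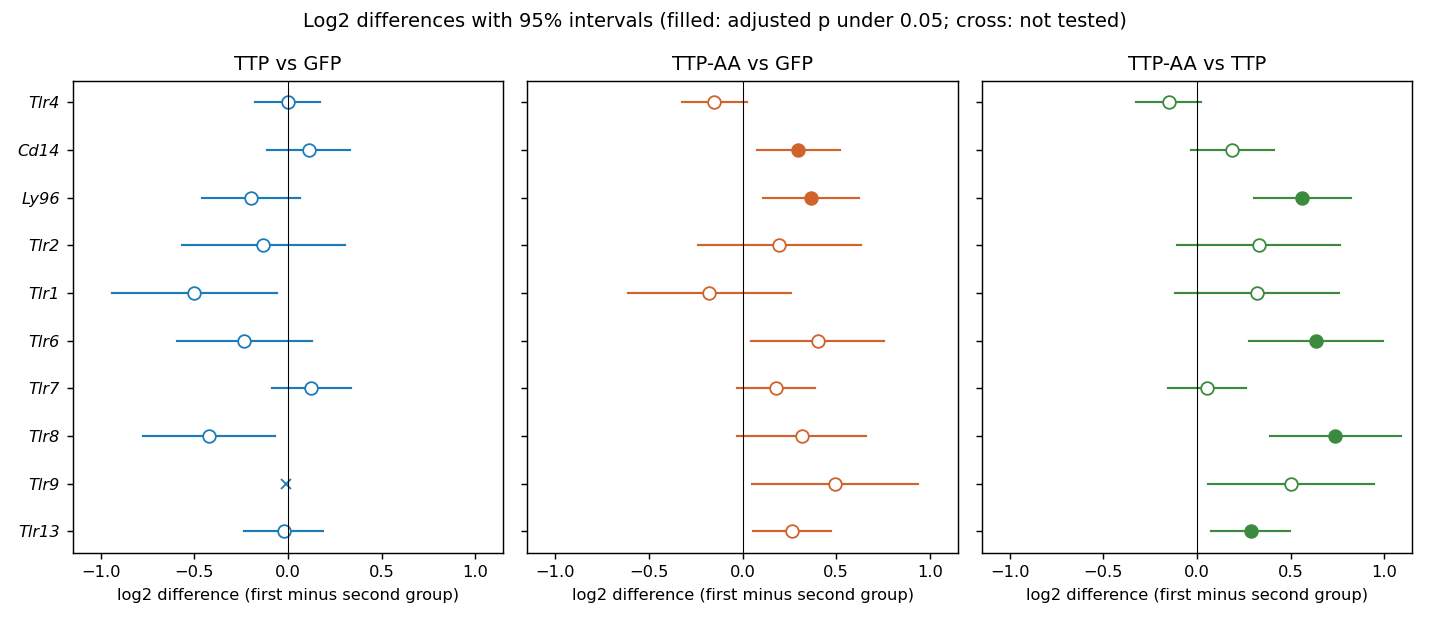
Log2 difference (x axis, first minus second group) of each receptor gene (y axis) with its 95% interval in the 3 comparisons, with filled points for an adjusted p under 0.05 and a cross for Tlr9, not tested in TTP vs GFP. Filled points are absent in TTP vs GFP, stand at Cd14 and Ly96 in TTP-AA vs GFP and at Ly96, Tlr6, Tlr8 and Tlr13 in TTP-AA vs TTP, all to the right of 0.

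Calls in both TTP-AA comparisons depended on the width assumed for the test scores. When scores were divided by their central spread over all genes, no receptor gene passed in any comparison, with adjusted p between 0.547 and 0.878 for the 6 differences called above.

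Tlr4 (chromosome 4, 66827584 to 66930284, plus strand), the signalling receptor for LPS, had fitted read counts of 4236, 3899 and 3046 in GFP, 4243, 3875 and 3057 in TTP and 3818, 3502 and 2743 in TTP-AA. The groups overlapped almost entirely. Its difference was -0.00 ± 0.09 in TTP vs GFP, with a 95% interval from -0.17 to 0.17, which left out a change of the size measured for Emr1. In TTP-AA the difference was -0.15 ± 0.09 against both GFP (Wald adjusted p = 0.246) and TTP (adjusted p = 0.200). Tlr4 had the narrowest range over the groups of all receptor genes, 0.15 on the log2 scale, and the smallest standard error.

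Ly96 (chromosome 1, 16688051 to 16709611, plus strand) encodes MD-2, the secreted protein that sits on TLR4 and holds the lipid part of LPS. It had fitted read counts of 356, 412 and 299 in GFP, 312, 358 and 262 in TTP and 460, 531 and 386 in TTP-AA. The fitted values of TTP-AA lay above those of TTP, while GFP overlapped with both. Ly96 rose 1.48-fold in TTP-AA vs TTP (log2 difference 0.56 ± 0.13, 95% interval 0.30 to 0.82, Wald adjusted p = 0.000235) and 1.29-fold in TTP-AA vs GFP (0.37 ± 0.13, adjusted p = 0.0328). Its difference in TTP vs GFP was -0.20 ± 0.13 (adjusted p = 0.431). The rise against GFP had a Wald adjusted p of 0.0517 when the median of chromosome 1 was subtracted, in a range from 3.18e-07 to 0.733 over 8 alternatives. The low end came only from scaling by regression, which moved the median of all genes by 0.35. Without that scaling the lowest adjusted p was 0.0266.

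Cd14 (chromosome 18, 36725067 to 36726798, minus strand) encodes the membrane-anchored protein that delivers LPS to TLR4 and MD-2. It had fitted read counts of 19571, 27094 and 24249 in GFP, 21157, 29068 and 26266 in TTP and 24102, 33261 and 29845 in TTP-AA, with all groups overlapping. Cd14 rose 1.23-fold in TTP-AA vs GFP (0.30 ± 0.11, 95% interval 0.08 to 0.52, Wald adjusted p = 0.0476), close to the threshold. The Wald adjusted p was 0.0634 with scaling by library totals and 0.0763 after removal of the trend in GC content and length. Over the alternatives it ranged from 9.31e-08, reached only with scaling by regression, to 0.772. Without that scaling the lowest was 0.0377. The differences in TTP vs GFP and in TTP-AA vs TTP were 0.11 ± 0.11 and 0.19 ± 0.11 (adjusted p = 0.643 and 0.215).

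Set beside each other per kb, Ly96 stood at 0.520 times the level of Tlr4 in GFP, 0.454 times in TTP and 0.745 times in TTP-AA. Cd14 stood at 20.4, 22.0 and 27.8 times the level of Tlr4 in the same order. These ratios are descriptions of fitted means and were not tested.

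Tlr2 (chromosome 3, 83836272 to 83841767, minus strand), which recognises bacterial lipopeptides as a dimer with TLR1 or TLR6, had fitted read counts of 23601, 26624 and 37959 in GFP, 21574, 24154 and 34769 in TTP and 27081, 30452 and 43529 in TTP-AA. Replicate 3 was the highest in every group, and the groups overlapped. Its differences were -0.13 ± 0.22 in TTP vs GFP, 0.20 ± 0.22 in TTP-AA vs GFP and 0.33 ± 0.22 in TTP-AA vs TTP (Wald adjusted p = 0.803, 0.617 and 0.280). The errors were unusually wide for so abundant an mRNA. Among 297 genes within 2-fold of its mean of 30379, the median standard error in TTP-AA vs TTP was 0.0916, and 3.37% of them had one as large as Tlr2. The interval in TTP-AA vs TTP ran from -0.11 to 0.76. Genes of chromosome 3 as a whole had a median difference of -0.21 in TTP vs GFP (575 genes), and relative to that median Tlr2 was at 0.08.

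Tlr1 and Tlr6, the partners of TLR2 for triacylated and diacylated lipopeptides, lie 18467 bases apart on chromosome 5, from 64924679 to 64933563 and from 64952031 to 64960097, both on the minus strand. Their mRNAs were far scarcer than that of Tlr2, which per kb was 538 times as abundant as Tlr1 and 182 times as abundant as Tlr6 in GFP. The genes share sequence. Of all 50-base windows of their transcripts, 15.3% in Tlr1 and 12.6% in Tlr6 occur in another gene, nearly all in the partner, so that reads of this length from there could not be told apart. The other 8 receptor genes had none.

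Tlr6 had fitted read counts of 234, 176 and 182 in GFP, 200, 149 and 155 in TTP and 310, 233 and 240 in TTP-AA. The lowest fitted value in TTP-AA was above the highest in TTP. Tlr6 rose 1.55-fold in TTP-AA vs TTP (0.63 ± 0.18, 95% interval 0.28 to 0.99, Wald adjusted p = 0.00330). Against GFP the differences were -0.23 ± 0.18 for TTP and 0.40 ± 0.18 for TTP-AA (adjusted p = 0.514 and 0.110), which did not pass.

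Tlr1 had fitted read counts of 82.0, 49.4 and 51.7 in GFP, 58.1, 34.7 and 36.7 in TTP and 72.6, 43.6 and 45.8 in TTP-AA. Replicate 1 was the highest in every group, and the groups overlapped. Its difference of -0.50 ± 0.22 in TTP vs GFP was the largest of any receptor gene in that comparison and did not pass after adjustment (Wald adjusted p = 0.162). TTP-AA vs TTP gave 0.32 ± 0.22 (adjusted p = 0.297), and TTP-AA vs GFP gave -0.18 ± 0.22, where Tlr6 had a positive value.

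**Figure D4:**
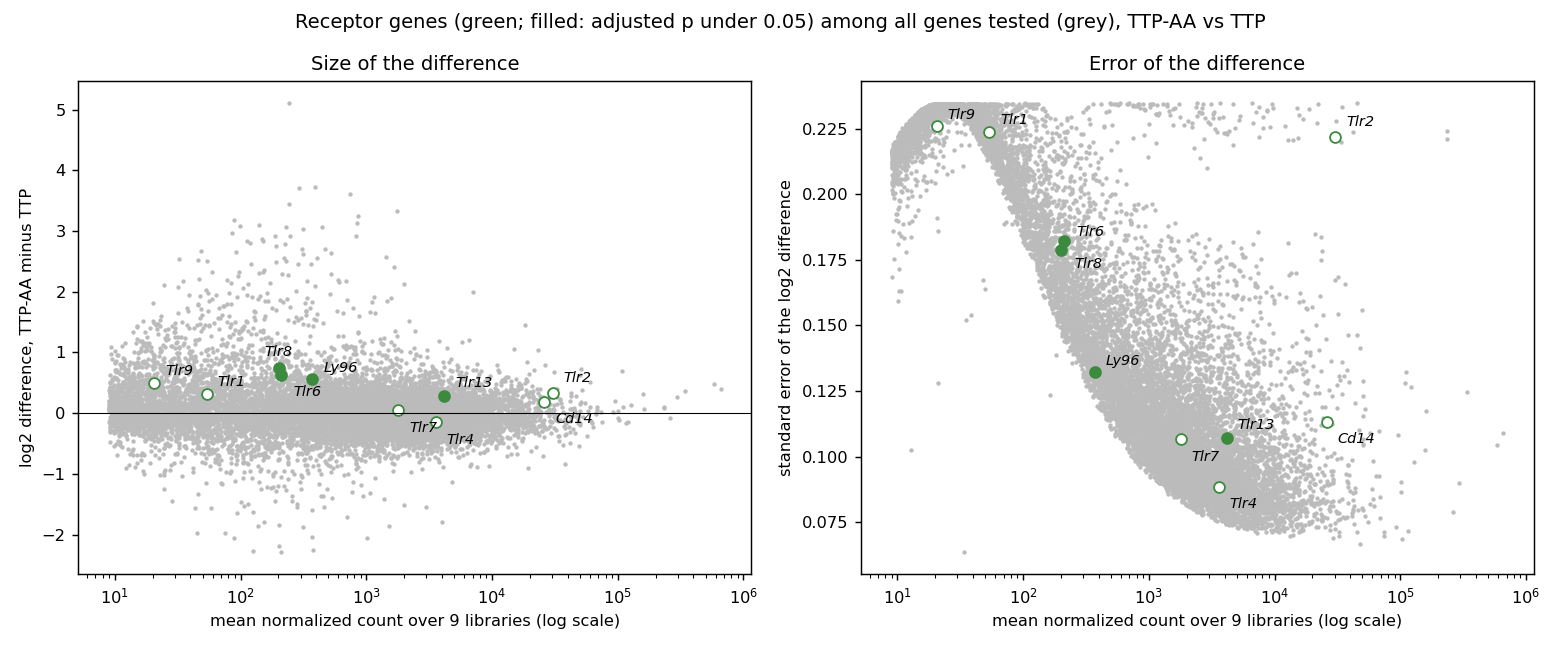
Log2 difference in TTP-AA vs TTP (left y axis) and its standard error (right y axis) against the mean normalized count over 9 libraries (x axes, log scale) for all 13205 genes (grey) and the receptor genes (green, filled for an adjusted p under 0.05). Tlr2 lies far above the band of standard errors of genes with similar means, and no standard error exceeds 0.235.

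Tlr7 and Tlr8, endosomal receptors of single-stranded RNA, lie 40599 bases apart on the minus strand of chromosome X. Tlr7 (167304929 to 167330558) was 7.86 times as abundant per kb as Tlr8 in GFP, 11.5 times in TTP and 7.14 times in TTP-AA.

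Tlr8 (167242696 to 167264329) had fitted read counts of 296, 173 and 125 in GFP, 221, 128 and 93.8 in TTP and 369, 215 and 156 in TTP-AA. It had the widest range over groups of all receptor genes, and the groups still overlapped because replicate 1 was more than 2-fold above replicate 3 within each of them. Tlr8 rose 1.67-fold in TTP-AA vs TTP (0.74 ± 0.18, 95% interval 0.39 to 1.09, Wald adjusted p = 0.000361), and 6.26% of all genes had a difference as large in either direction. Against GFP it was at -0.42 ± 0.18 in TTP (adjusted p = 0.133) and at 0.32 ± 0.18 in TTP-AA (adjusted p = 0.224), neither of which passed.

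Tlr7 had fitted read counts of 2039, 1541 and 1459 in GFP, 2227, 1670 and 1597 in TTP and 2308, 1739 and 1651 in TTP-AA. The groups overlapped, with replicate 1 the highest in each. Its differences were 0.12 ± 0.11 in TTP vs GFP, 0.18 ± 0.11 in TTP-AA vs GFP and 0.05 ± 0.11 in TTP-AA vs TTP (Wald adjusted p = 0.559, 0.266 and 0.765). The last had a 95% interval from -0.16 to 0.26, which lay below the whole interval of its neighbour Tlr8. The difference between the genes was not tested.

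Tlr13 (chromosome X, 106143204 to 106160493, plus strand), a receptor for bacterial ribosomal RNA that mice have and humans lack, had fitted read counts of 4853, 4006 and 3003 in GFP, 4788, 3921 and 2968 in TTP and 5832, 4798 and 3606 in TTP-AA. GFP and TTP were almost level, and all groups overlapped. Tlr13 rose 1.22-fold in TTP-AA vs TTP (0.29 ± 0.11, 95% interval 0.08 to 0.50, Wald adjusted p = 0.0308). Its Wald adjusted p was 0.0702 when the median of chromosome X was subtracted. Over the alternatives it ranged from 1.03e-07, reached only with scaling by regression, to 0.878. Without that scaling the lowest was 0.0159. The difference in TTP-AA vs GFP was 0.26 ± 0.11 (adjusted p = 0.0691), and in TTP vs GFP it was -0.02 ± 0.11.

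Tlr9 (chromosome 9, 106222598 to 106226883, plus strand), the receptor for unmethylated CpG DNA, was the scarcest, with fitted read counts of 21.7, 11.0 and 17.1 in GFP, 21.7, 10.9 and 17.1 in TTP and 30.7, 15.5 and 24.1 in TTP-AA. The groups overlapped, and replicate 2 was the lowest in each. Its differences of 0.49 ± 0.23 in TTP-AA vs GFP and 0.50 ± 0.23 in TTP-AA vs TTP did not pass (Wald adjusted p = 0.117 and 0.0810). No gene had a standard error above 0.235, down to a mean normalized count of 8.98. In TTP-AA vs TTP the median was 0.225 among genes near the mean of Tlr1 and 0.231 among those near Tlr9. Whether standard errors or differences of scarce genes were shrunk is not given in the sources used here. Intervals of scarce genes such as Tlr9 and Lbp may therefore be too narrow and their p-values too low. Some more abundant genes lay near the same ceiling in TTP-AA vs TTP, with standard errors of 0.232 for Cd36 and Irak3 and 0.222 for Tlr2. The same caution holds for them.

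By location, 1 of 4 cell-surface receptors, 2 of 4 endosomal receptors and 1 of 2 co-receptors rose in TTP-AA vs TTP, beside 15.2% of all genes higher. With so few genes in each, these counts set no location apart. The surface receptors spanned -0.15 to 0.63 with a median of 0.33, and the endosomal receptors 0.05 to 0.74 with a median of 0.39. The spans of both groups overlapped widely.

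For 8 of the 10 receptor genes the fitted level varied more over replicate numbers than over the 3 groups. The exceptions were Ly96, with a range of 0.46 over replicate numbers and 0.56 over groups, and Tlr6, with 0.41 and 0.63. Tlr8 varied most over replicate numbers, by 1.24, and 2.20% of all genes had as wide a range. Tlr9 followed with 0.98 and Tlr1 with 0.73. Over all 11977 genes tested in every comparison the median range was 0.32 over replicate numbers and 0.25 over groups. The authors' model held library date as a term, which followed the replicate numbers, and the differences above were taken within it.

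**Figure D5:**
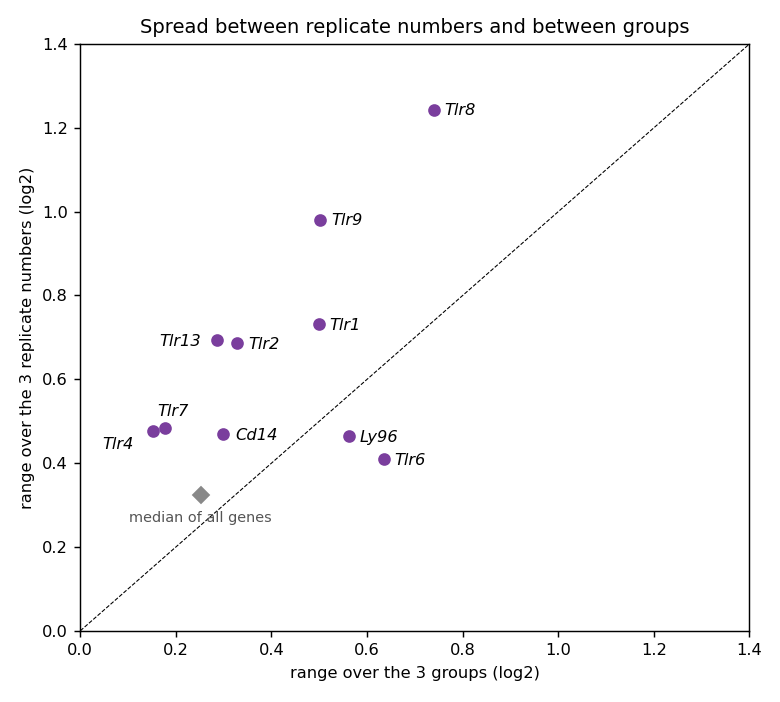
Range of the fitted log2 level over the 3 replicate numbers (y axis) against the range over the 3 groups (x axis) for each receptor gene, with a grey diamond at the median of all 11977 genes and a dashed line where both are equal. Tlr6 and Ly96 lie below the line and the other 8 genes above it.

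The genes whose pattern lay nearest to that of Tlr8, by the distance between their pairs of log2 differences against GFP among 11143 genes with a mean of at least 50, were Rcbtb1 (distance 0.0308), Slc39a3 (0.0338) and Pltp (0.0353). Each is a description over 3 groups of fitted means. Pltp, which encodes the phospholipid transfer protein, a relative of LPS-binding protein, was at -0.44 in TTP and 0.35 in TTP-AA.

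The remaining Toll-like receptors of the mouse added little. Tlr3, the receptor for double-stranded RNA, was at 31.5 fitted reads per kb in GFP, between Tlr8 and Tlr1, and did not pass in any comparison (differences -0.36 ± 0.20, -0.01 ± 0.20 and 0.35 ± 0.20). Tlr5 had group means below a fitted read count of 9 and was not tested, and Tlr11 and Tlr12 were not found under these symbols in the library table.

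Of 15 genes for accessory, trafficking and decoy proteins of the pathway, 13 were tested. None passed in TTP vs GFP. In TTP-AA vs GFP 2 rose, beside 18.0% of all genes called, and in TTP-AA vs TTP 3 rose and 1 fell, beside 28.4% of all genes called, with a median of 0.16. These counts were near the share over all genes. Cd36, a scavenger receptor that presents lipids to TLR2 with TLR6, had fitted read counts of 1223, 829 and 764 in TTP and 2345, 1596 and 1461 in TTP-AA. It rose by 0.94 ± 0.23 against TTP and 1.18 ± 0.23 against GFP (Wald adjusted p = 0.000485 and 1.42e-05). Irak3, a kinase-like protein that restrains signalling from the receptors, rose by 1.02 ± 0.23 and 0.76 ± 0.23 in the same comparisons (adjusted p = 0.000135 and 0.00987). The standard errors of Cd36 and Irak3 lay near the largest of any gene, so these p-values may be too low. Lbp, the LPS-binding protein, rose by 1.03 ± 0.23 in TTP-AA vs TTP (adjusted p = 0.000129) at group means of 13.8 and 28.1. Hsp90b1, the chaperone that folds Toll-like receptors, fell by 0.33 on the log2 scale (SE 0.10, adjusted p = 0.00652). Unc93b1, which carries the endosomal receptors out of the endoplasmic reticulum and was singled out here after its values were seen, was at 0.16 ± 0.11 in TTP-AA vs TTP (adjusted p = 0.318).

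Of 19 adaptors and kinases, 18 were tested in TTP vs GFP, where 2 fell, beside 5.42% of all genes lower. These were Ticam1, which encodes TRIF, at -0.48 ± 0.14, and Tbk1, the kinase below it, at -0.30 ± 0.10 (Wald adjusted p = 0.0163 and 0.0361). In TTP-AA vs GFP, where 18.0% of all genes were called, 2 of 19 rose, Ikbke by 0.56 ± 0.15 and Traf3 by 0.34 ± 0.09 (adjusted p = 0.00271 and 0.00346). In TTP-AA vs TTP 5 of 19 rose and none fell, beside 15.2% of all genes higher and 28.4% called in either direction. Ticam1 rose by 0.65 ± 0.14, Ikbke by 0.53 ± 0.15, Tab2 by 0.35 ± 0.12 and Tbk1 by 0.34 ± 0.10 (adjusted p = 7.85e-05, 0.00299, 0.0159 and 0.00515), and Traf3 passed as well, by 0.28 ± 0.09. Myd88, the adaptor shared by nearly all of these receptors and likewise singled out after its values were seen, was at 0.17 ± 0.13 (adjusted p = 0.363). The median over the list was 0.15 in TTP-AA vs TTP, beside 0.01 for all genes.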

How the data were processed

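RNA from 9 libraries (3 each of GFP, TTP and TTP-AA, grouped by sample title) was analysed. Per the submitters' notes, reads were trimmed with Trim Galore, aligned to GRCm38 with TopHat2 2.0.12, counted per gene with HTSeq and modelled with DESeq2 1.6.3, and the study's methods name library date and condition as terms. The study's methods name an earlier TopHat release than the submitters' notes do. Use of strand in the counting is not given in the sources used here.

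The deposited library table holds a signal per gene and library, named by the authors as normalized counts. Its 25494 genes had no value of 0, only 4 singular values of its centred log2 matrix differed from 0 although 9 unrelated libraries have 8, and log2 ratios of same-numbered libraries were equal over replicate numbers (largest SD 4.21e-15). It therefore holds fitted means, each made of factors for the library, the replicate number and the condition. Numbers pair the libraries through the second of these. Since the fitted values have no scatter, no interval for single libraries is given, and totals of fitted means stand in for depth.

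The deposited comparison tables hold, from the authors' DESeq2 model, a mean signal per gene, log2 standard errors, and fold changes, scores and p-values. Only the mean and the standard error were used here, since the standard error is the one record of the replicate scatter.

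Libraries were scaled by the median of ratios over the 11977 genes with a standard error in all comparisons. The log2 difference was averaged over same-numbered libraries and divided by the authors' standard error, with a two-sided normal p (a Wald test), 95% intervals and Benjamini-Hochberg adjustment over all genes of the comparison, at a threshold of 0.05. The procedure was tested on simulated data. The simulated differences were drawn with the authors' standard errors, so this checked the computation and could not show whether those errors were wide enough. For positions, exon lengths and 3'UTRs the GENCODE release M21 for mouse (GRCm38) was used, a later annotation than that of the authors. Python 3.11.15, numpy 2.4.6, pandas 2.3.3, scipy 1.17.1 and matplotlib 3.10.9 were used.

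The 10 receptor genes and the gene lists were chosen with earlier results of these data known. Named genes were the receptor genes, Zfp36, the other Toll-like receptors, up to 4 called genes per list and comparison by size of the difference, and the 3 genes nearest in pattern to the receptor gene with the widest range. Alternatives were other scalings (library totals, upper quartile, regression on the authors' mean), subtraction of chromosome medians, removal of a GC content and length trend, scores divided by their central spread, a mean of at least 50 and a pseudocount of 1.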

Additional observations from a re-analysis of the deposited data

Results flagged for a closer look

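The test of TTP-AA vs TTP is also the test of whether the change against GFP differed between both forms of TTP. It passed for 4 of the 10 receptor genes, which was what marked them for a closer look, beside 28.4% of all genes called in that comparison. The difference between the changes was 0.63 ± 0.18 for Tlr6, with values against GFP of -0.23 in TTP and 0.40 in TTP-AA. For Tlr8 it was 0.74 ± 0.18, with -0.42 and 0.32. For Ly96 it was 0.56 ± 0.13, with -0.20 and 0.37. For Tlr13 it was 0.29 ± 0.11, with -0.02 and 0.26. Of these 8 values against GFP, only that of Ly96 in TTP-AA passed its own test.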

How the results depend on the processing

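The 29 tested differences of receptor genes gave 230 values under 8 alternatives. Of these 208 kept their direction and side of the threshold or had no call in either setting, 10 lost a call, 11 gained one and 1 reversed. The number of receptor genes called in TTP vs GFP was 0 throughout. In TTP-AA vs GFP the number was 2 and became 1 with library totals, 1 after subtraction of chromosome medians, 1 after removal of the GC content and length trend and 0 with scores divided by their central spread. In TTP-AA vs TTP the number was 4 and became 3 after subtraction of chromosome medians, without Tlr13, and 0 with divided scores. The divisors were 1.77 and 2.16 in the TTP-AA comparisons, and the numbers of all genes called fell from 1070, 2372 and 3753 to 257, 197 and 270 over the 3 comparisons.

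With library factors by regression on the authors' mean, a fit between nearly collinear columns (condition number 243), the median of all genes moved by 0.35 in TTP-AA vs GFP and 0.33 in TTP-AA vs TTP. Then 9 receptor genes were called in each, Tlr4 reversed to 0.20 in TTP-AA vs GFP, and 8241 and 7788 genes were called, 98.2% and 96.3% of them higher where the main scaling had 52.8% and 53.5%. In TTP vs GFP the share higher was 51.2% where the main scaling had 39.3%. A scaling adds the same constant to every gene, so differences relative to the median were not moved by it.

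No paired analysis was possible because fitted means leave no residual, other than the one reported, whose differences between same-numbered libraries and standard errors already hold the replicate number. For the same reason a fit without that block and fits leaving out each replicate were not run. With 1 standard error per gene, the depth of TTP-AA replicate 3 could not be weighed.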
